A study of Mus musculus with 20 samples.

Results

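Of 11851 mouse genes with a deposited m6A peak in male germ cells, 1398 (11.8%) had at least 1 peak in each of undifferentiated spermatogonia, type A1 spermatogonia and preleptotene spermatocytes and no peak in pachytene/diplotene spermatocytes or round spermatids. They are called early-only genes here, and all their peaks were taken, which gave 10311 of 84778 peaks: 3824 in undifferentiated spermatogonia, 3082 in type A1 spermatogonia and 3405 in preleptotene spermatocytes. They were chosen from the peak lists themselves, so the presence of early peaks and the absence of later ones describe the choice and are not results. The study mapped N6-methyladenosine (m6A) along messenger RNA of the 5 stages by m6A-seq, in which sheared polyadenylated RNA is precipitated with an antibody to m6A and sequenced beside its input. Each stage gave 2 immunoprecipitated and 2 input libraries, 20 in all, from wild-type mice of the C57BL/6 strain. The labels used here give neither the age of these mice nor how the cells were sorted. Nor do they tie the 2 replicates of a stage to different animals, so a p-value reflects the scatter of 2 libraries that may differ only technically.

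m6A is added to adenosines of messenger RNA by a nuclear complex of Mettl3 and Mettl14, removed by demethylases, and read by proteins of the YTH family that affect splicing, translation and decay. Undifferentiated spermatogonia hold the stem cells of the testis, type A1 spermatogonia are the first differentiating cells, which respond to retinoic acid and depend on the Kit receptor, and preleptotene spermatocytes replicate their DNA ahead of meiosis. In pachytene spermatocytes the X and Y chromosomes, which lack a full partner, are packed into the sex body and transcriptionally silenced, and round spermatids are the haploid cells that follow.

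Kit, the receptor for stem cell factor, Dmrt1, a transcription factor that holds back entry into meiosis, and Stra8, a retinoic acid target needed to begin meiosis, were all among the early-only genes. Kit lies at chr5:75574987-75656722, Dmrt1 at chr19:25505618-25604328 and Stra8 at chr6:34920163-34939344 of GRCm38.p6, the build whose coordinates are those of mm10. RefSeq promoter entries were found for 1147 of the 1398 early-only genes. Their listed start sites can differ from the start of the gene span. The Stra8 window below lies inside the span given here, and the Ogt window runs past the start of its gene span. The 120 bases before the first listed start site are shown for Kit and Stra8, which mark the stages, and for Rbbp7 and Ogt, which led the X-linked genes, with GC boxes (GGGCGG or its complement) and CCAAT boxes (or the complement ATTGG) in capitals, 5′ to 3′ on the gene's own strand, here the plus strand of GRCm38.p6:
Kit, chr5:75574867-75574986: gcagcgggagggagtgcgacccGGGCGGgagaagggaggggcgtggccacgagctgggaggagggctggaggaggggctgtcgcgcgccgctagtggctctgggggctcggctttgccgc
Stra8, chr6:34920828-34920947: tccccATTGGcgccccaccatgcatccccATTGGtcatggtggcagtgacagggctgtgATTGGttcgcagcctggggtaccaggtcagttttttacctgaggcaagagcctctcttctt
Rbbp7, chrX:162760252-162760371: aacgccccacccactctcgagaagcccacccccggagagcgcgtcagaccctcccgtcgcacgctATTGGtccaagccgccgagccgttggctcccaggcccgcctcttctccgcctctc
Ogt, chrX:101639931-101640050: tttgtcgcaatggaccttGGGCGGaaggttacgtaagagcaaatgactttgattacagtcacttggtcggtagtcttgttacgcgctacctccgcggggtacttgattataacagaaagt

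The Kit and Ogt windows each held 1 GC box and no CCAAT box, the Stra8 window 3 CCAAT boxes and no GC box, and the Rbbp7 window 1 CCAAT box and no GC box. Over the 250 bases before each start, on both strands, a GC box was present in 63.4% of 1469 promoters of early-only genes, against 62.8% of 4631 promoters of genes marked in the same 3 stages and also later and 32.7% of all 32851 promoters of the table. CCAAT boxes were present in 35.3% of the early-only promoters, 36.1% of those also marked later and 33.8% of all. TGACG, the core of the site of cyclic AMP responsive factors, was present in 23.8% of early-only promoters, 32.5% of those also marked later and 17.8% of all. The median number of CpG dinucleotides in the window was 17, against 19 in genes also marked later, 8 in genes marked in the last 2 stages only and 6 in all promoters, and the X-linked early-only genes had a median of 12. A match is a description of letters in the window and not of a site in use, and the promoters of a gene overlap in places.

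Early-only genes were 24.0% of the 5824 genes marked in each of the first 3 stages. Of the other 4426, 2876 (49.4% of the 5824) had peaks in all 5 stages, 1260 (21.6%) were also marked in pachytene/diplotene spermatocytes but not round spermatids, and 290 (4.98%) also in round spermatids but not pachytene/diplotene. The early-only genes comprised 1384 protein coding genes, 9 long noncoding RNA genes and 5 transcribed pseudogenes. Their median genomic span was 29523 bp, against 29106 bp for the genes also marked later. In the bulk samples a missing peak does not tell a lack of m6A from a lack of the transcript. Nor can fewer cells of a type be told apart from less RNA per cell, and transcript levels were not analysed here.

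The X chromosome stood apart. Of the 198 X-linked genes marked in each of the first 3 stages, 148 were early-only (74.7%, Wilson 95% interval 68.3% to 80.3%), against 1242 of 5618 autosomal genes (22.1%, 21.0% to 23.2%). The shares of single autosomes ran from 15.5% on chromosome 18 to 28.3% on chromosome 6, and no autosome's interval reached that of the X. The 8 Y-linked genes marked in the first 3 stages were all early-only (100%, 67.6% to 100%). These intervals treat genes as independent and cover counting error only. The 8 Y-linked genes held only 5 distinct sets of values, so their interval counts copies with identical values as separate genes.

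**Figure D1:**
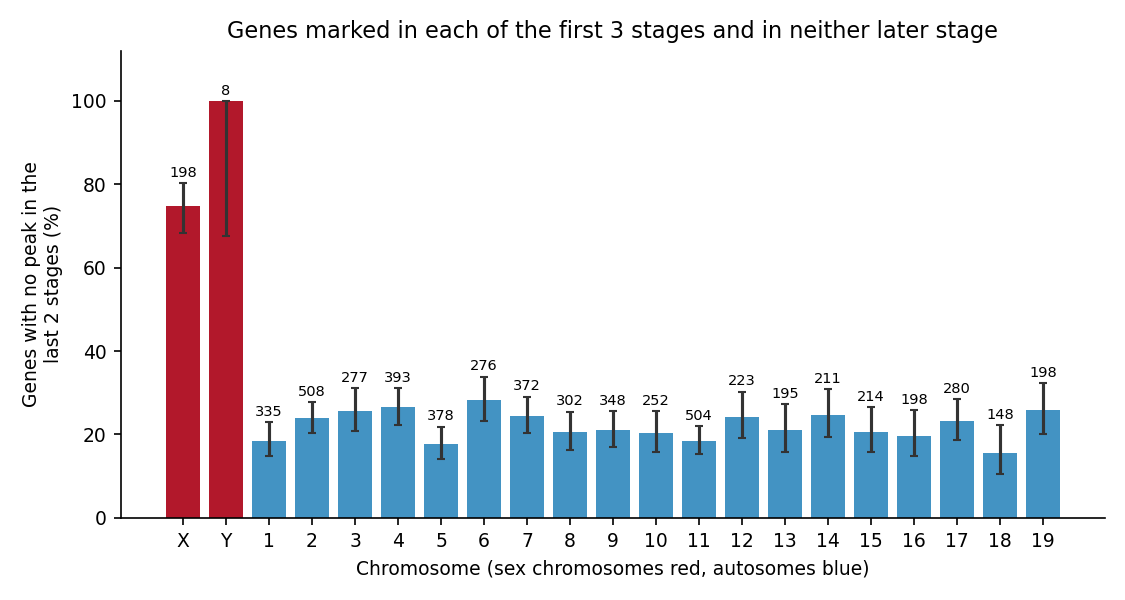
Share of genes with no peak in the last 2 stages among genes marked in each of the first 3 stages, by chromosome, in percent; bars carry Wilson 95% intervals and the number above each is the number of genes marked in the first 3 stages. The X (74.7%) and Y (100%) bars stand above all autosomes, which lie between 15.5% and 28.3%.

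X-linked genes therefore made up 10.6% of the early-only genes (9.08% to 12.3%). They were 1.13% of the genes also marked later, 0.0696% of the genes marked in all 5 stages (2 genes, Chic1 and Vsig1), 0.144% of the genes marked in the last 2 stages only and 3.79% of all genes with a peak. The X share of early-only genes was 9.85% when the type A1 table was left out of the rule, which gave 1768 genes. By stage, X-linked genes with a peak numbered 332 in undifferentiated, 252 in type A1 and 281 in preleptotene cells, 6 in pachytene/diplotene cells and 126 in round spermatids. Of the 198 X-linked genes, 3 (1.52%) had a pachytene/diplotene peak and 49 (24.7%) a round spermatid peak, against 73.6% and 55.5% of the autosomal genes. Thus 47 X-linked genes kept out of the early-only set by a round spermatid peak had none in pachytene/diplotene.

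In the first 3 stages the medians of X-linked early-only genes lay close to or above those of autosomal ones, a difference that was not tested. A gene's value is taken at its strongest peak, as the log2 enrichment of immunoprecipitated over input reads. Its median in X-linked early-only genes was 3.79 in undifferentiated spermatogonia, 2.02 in type A1 spermatogonia and 3.60 in preleptotene spermatocytes, against 3.62, 2.04 and 3.29 in autosomal early-only genes. Rbbp7, encoding a histone chaperone subunit of chromatin complexes, at chrX:162760372-162779090, had the highest value of the X-linked genes named here, in its 5′ UTR. It measured 7.90 and 8.49 in the 2 undifferentiated replicates, 3.79 and 3.73 in type A1, and 7.21 and 6.94 in preleptotene. Ogt, encoding the enzyme that adds O-GlcNAc to proteins, at chrX:101640011-101684351, measured 3.99 and 5.38, then 4.31 and 3.83, then 4.53 and 4.75. The Rbbp7 replicates lay close together and the type A1 pair far below the others, whereas the undifferentiated replicates of Ogt overlapped or enclosed those of both later stages.

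Usp11, Rap2c and Ddx3x were also among the X-linked genes with the highest values in their lowest stage. Usp11, encoding a deubiquitinase, averaged 5.65 ± 0.41, 3.63 ± 0.31 and 5.51 ± 0.03 in undifferentiated, type A1 and preleptotene cells (SD, n = 2 each). Rap2c, encoding a small GTPase, averaged 3.80 ± 1.25, 3.61 ± 0.16 and 4.21 ± 0.05, and its undifferentiated replicates were far apart. Ddx3x, encoding an RNA helicase, averaged 5.19 ± 0.28, 3.46 ± 0.21 and 3.52 ± 0.20, so its preleptotene value stayed near that of type A1.

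Some X-linked genes of spermatogenesis have autosomal copies that arose by retrotransposition, and 9 such pairs were looked up, a choice made after the data were seen. Pgk1, the X-linked phosphoglycerate kinase gene, was early-only at 3.29, 1.89 and 3.37 in the 3 stages in order. Its autosomal copy Pgk2 had no early peak, and measured 2.92 in pachytene/diplotene spermatocytes and 1.80 in round spermatids. Rbmx, encoding a splicing factor, was early-only at 2.49, 2.03 and 2.62, and its copy Rbmxl2 had a peak only in round spermatids, at 0.71. The X-linked genes of the other 7 pairs were not early-only, and several pairs ran otherwise. Cstf2 and Utp14a had a round spermatid peak, at 1.34 and 2.08, and their autosomal copies Cstf2t and Utp14b had peaks in all 5 stages, as did Pdha2, the copy of Pdha1. Gk had a peak only in preleptotene cells, at 3.43, and its copy Gk2 measured 3.25 in pachytene/diplotene spermatocytes and 2.03 in round spermatids.

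The Y-linked early-only genes were weak and partly uncertain. They were Rbmy, encoding a germ cell RNA-binding protein, Uba1y, encoding a ubiquitin-activating enzyme, and 6 predicted genes, and these 8 held 5 distinct sets of values. Near-identical copies can share reads, and how reads were assigned to them was not tested. Rbmy measured 2.83 and 3.34 in undifferentiated replicates, 1.25 and 0.98 in type A1 and 2.93 and 2.57 in preleptotene. Uba1y measured 1.55 and 2.54, then 0.95 and 1.08, then 2.01 and 2.25. In both genes the undifferentiated and preleptotene replicates overlapped, and the type A1 ones lay below them, as the type A1 median did over all early-only genes.

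Of 36 listed genes of spermatogonial differentiation and retinoic acid, 21 were marked in each of the first 3 stages and 13 of these were early-only (61.9%). The share over all genes marked in these stages was 24.0%. The list holds Kit, Dmrt1 and Stra8 and was chosen with earlier results of these data known, so the count is a description with no test. The 13 were Kit, Dmrt1, Stra8, Dnmt3a, Dnmt3b, Ccnd2, Sall4, Rarg, Rxra, Sohlh2, Nxf2, Crabp1 and Cyp26b1. The strongest Kit peak in undifferentiated cells lay at the start codon (bases 45 to 203 of the transcript) and measured 4.71 and 4.30, the strongest in type A1 cells lay in the 3′ UTR and measured 3.20 and 3.06, and the strongest in preleptotene cells was again near the start, at 5.79 and 5.17. Dmrt1 measured 7.23 and 8.08 at its start codon, then 3.01 and 2.96, then 6.36 and 5.95. Stra8 measured 2.24 and 3.25 in its coding sequence, then 1.83 and 1.66, then 3.10 and 2.85. In all 3 the type A1 replicates lay below those of the other stages, and the undifferentiated and preleptotene replicates overlapped only in Stra8. The median over all early-only genes was also lowest in type A1, at 2.04, against 3.63 in undifferentiated and 3.31 in preleptotene cells.

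**Figure D2:**
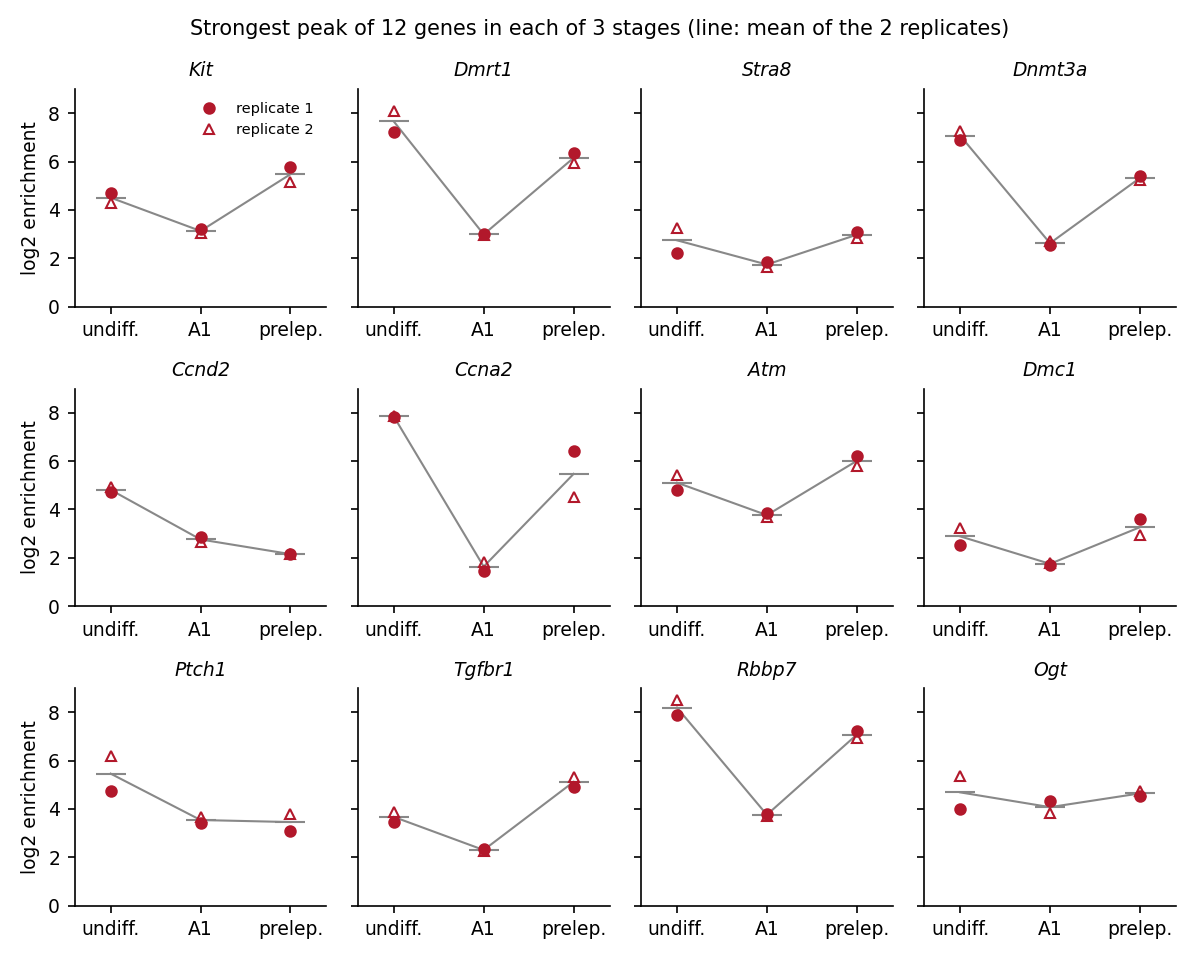
Log2 enrichment of the strongest peak in each of 3 stages for 12 early-only genes; filled circles are replicate 1, open triangles replicate 2, horizontal marks and the line the mean of the 2. Type A1 values are below undifferentiated ones in 11 of the genes in both replicates, and overlap them in Ogt. The median over all early-only genes is also lower in type A1 (2.04) than in undifferentiated cells (3.63). Ccnd2 stays low in preleptotene spermatocytes at 2.15 and 2.15.

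Dnmt3a, encoding a DNA methyltransferase, measured 6.89 and 7.26 at its start codon in undifferentiated cells, 2.55 and 2.70 in type A1 and 5.39 and 5.26 in preleptotene, with 12, 7 and 8 peaks along the transcript. Ccnd2, the D-type cyclin of differentiating spermatogonia, measured 4.70 and 4.92, then 2.85 and 2.67, then 2.15 and 2.15, with 5, 2 and 1 peaks. Of the genes of undifferentiated spermatogonia and GDNF, 8 of the 10 marked in each of the first 3 stages were early-only, of 34 listed: Foxo1, Itga6, Mcam, Rarg, Sall4, Sdc4, Taf4b and Zbtb16. Sall4 and Rarg are also in the list before, and the share over all genes marked in the first 3 stages was 24.0%. Sdc4, a heparan sulfate proteoglycan, averaged 5.48 ± 0.13, 1.69 ± 0.55 and 3.30 ± 0.93 in the 3 stages (SD, n = 2 each). Taf4b, a subunit of the general transcription machinery used in germ cells, averaged 5.28 ± 0.04, 2.33 ± 0.18 and 4.38 ± 0.04, and Foxo1, a transcription factor of stem cell maintenance, 5.13 ± 0.01, 3.12 ± 0.19 and 4.37 ± 0.22. Itga6, an integrin of stem and progenitor cells, averaged 4.56 ± 0.21, 2.89 ± 0.18 and 3.12 ± 0.73.

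Other lists differed in how often their marked genes were early-only. The share was 6 of 12 for DNA methylation, 16 of 38 for receptor tyrosine kinase, MAP kinase and PI3 kinase signalling, 8 of 23 for Wnt, Notch and Hedgehog, 10 of 31 for cyclins, Cdks and Cdk inhibitors, 12 of 37 for DNA replication, 4 of 13 for TGF-beta, BMP and activin, and 6 of 18 for the Bcl-2 family and p53 pathway and 4 of 12 for cytosolic ribosomal proteins. It was 5 of 21 for the meiotic axis and recombination and 4 of 18 for the piRNA pathway, near the 24.0% of all genes marked in the first 3 stages. It was 6 of 37 for translation initiation, 12 of 92 for chromatin writers and remodelers, 2 of 21 for m6A writers, erasers and readers, 1 of 12 for pachytene and meiotic division, 2 of 32 for kinetochore, checkpoint and division kinases and 0 of 4 for spermiogenesis. The lists were chosen with earlier results of these data known, so these counts are descriptions, with no test.

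**Figure D3:**
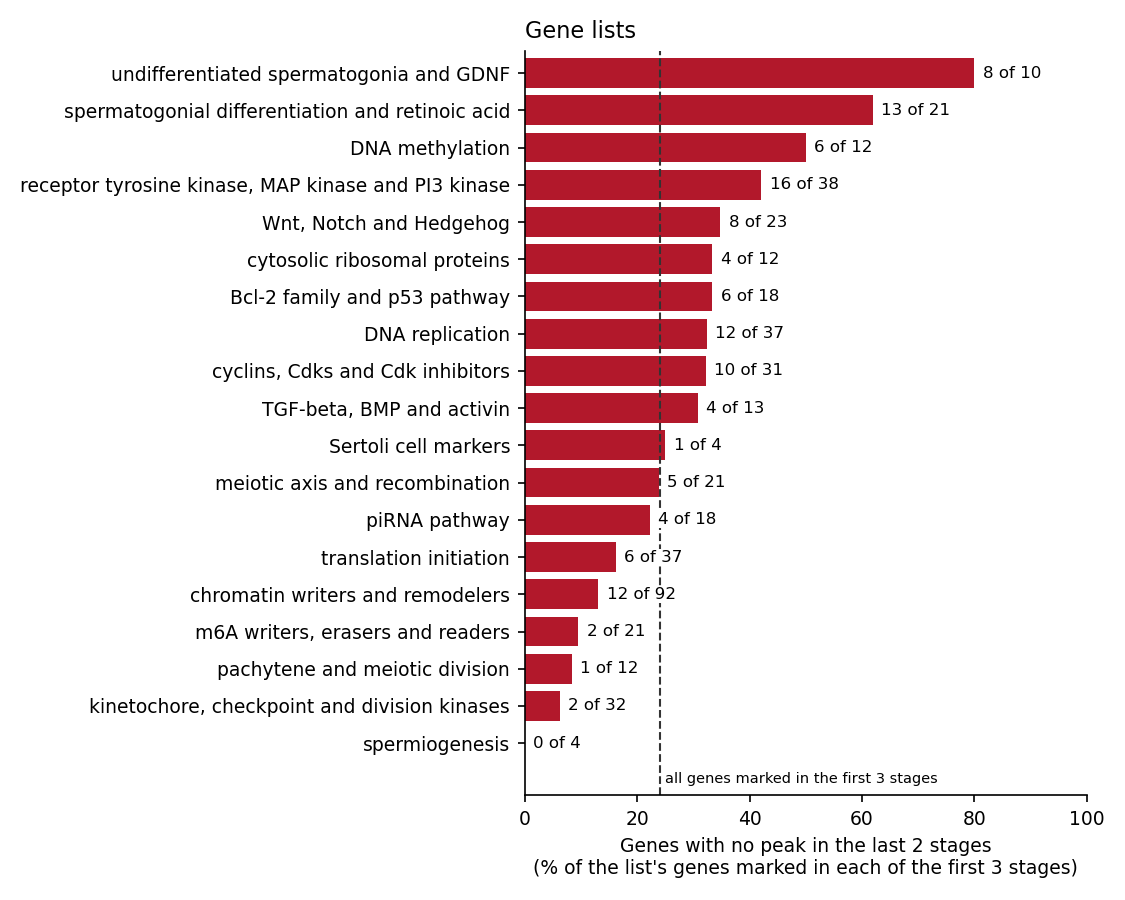
For each gene list with at least 4 genes marked in all of the first 3 stages, the percentage of those genes with no peak in the last 2 stages, with the counts beside each bar; the dashed line is the share over all genes, 24.0%. The lists of undifferentiated and of differentiating spermatogonia stand highest, at 8 of 10 and 13 of 21, and the division and spermiogenesis lists lowest, at 2 of 32 and 0 of 4.

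Among cell cycle genes, Ccna2, the A-type cyclin of S phase and mitosis, had the widest range. It measured 7.82 and 7.86 at the start codon in undifferentiated cells, 1.45 and 1.82 in type A1 and 6.43 and 4.52 in preleptotene. Ccnd1, a D-type cyclin, averaged 5.17 ± 0.59, 1.80 ± 0.03 and 3.96 ± 0.39 (SD, n = 2 each), and Ccng1, a cyclin induced by p53, 4.41 ± 0.36, 1.48 ± 0.10 and 3.16 ± 0.12. The 12 replication genes were Cdt1, Fen1, Mcm2, Mcm4, Mcm5, Orc1, Pola1, Pold1, Pole2, Rfc5, Rrm2 and Tyms. Mcm4, a subunit of the replicative helicase, averaged 4.89 ± 0.34, 1.96 ± 0.07 and 4.44 ± 0.34, and Tyms, which makes thymidylate, 4.85 ± 0.60, 1.39 ± 0.01 and 3.83 ± 0.68. Mcm2, another helicase subunit, averaged 4.27 ± 0.52, 2.04 ± 0.19 and 4.04 ± 0.06, and Orc1, of the origin recognition complex, 4.20 ± 0.06, 2.02 ± 0.44 and 3.95 ± 0.32. In these 4 replication genes the preleptotene mean lay nearer to the undifferentiated one than to that of type A1. The medians over all early-only genes ran the same way, at 3.63, 2.04 and 3.31, so this is not particular to replication genes. In the division list the 2 early-only genes were Sgo1, a protector of cohesion, and Bub1, a checkpoint kinase, at 2.90 ± 0.10, 1.81 ± 0.18 and 2.91 ± 0.41 in Bub1.

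The 5 early-only genes of meiotic recombination were Atm, Dmc1, Mei1, Tex11 and Trip13. Atm, the DNA damage kinase, measured 4.79 and 5.43, then 3.84 and 3.69, then 6.22 and 5.80, so its preleptotene replicates lay above those of both earlier stages. It carried 9, 8 and 10 peaks. Dmc1, the meiotic strand exchange protein, measured 2.52 and 3.25, then 1.71 and 1.79, then 3.60 and 2.93, with 1 peak in each stage and overlap of the first and last. Tex11, an X-linked gene needed for crossovers, averaged 3.10 ± 0.26, 2.03 ± 0.01 and 3.55 ± 0.37, and Trip13, an ATPase that remodels axis proteins, 4.98 ± 0.15, 2.48 ± 0.25 and 4.69 ± 0.27. Rfx3, a transcription factor of cilia genes, was the 1 early-only gene of the pachytene list, at 3.33 ± 0.60, 2.36 ± 0.37 and 3.74 ± 0.93. Both early-only genes of the m6A list, Fmr1, an RNA-binding protein that can read m6A, and Rbmx, are X-linked.

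The highest values over all 3 stages belonged to genes of other kinds. Foxn2, a forkhead transcription factor, measured 6.81 and 7.19 in undifferentiated cells, 4.95 and 5.14 in type A1 and 6.87 and 7.43 in preleptotene, and its type A1 pair is the highest of all early-only genes in that stage. Spin1, a reader of histone methylation, measured 7.47 and 7.84, then 4.66 and 4.74, then 6.17 and 6.78. They were followed in order of the lowest stage by Lgr4, a receptor of R-spondins, Btbd3, Tmem170b, Zbtb14, Ogt, Mier1, Traf3, an adaptor of TNF receptors, and Dipk2a, whose lowest stages ran from 4.57 in Lgr4 to 3.98 in Dipk2a. The genes with most peaks over the 3 stages were Kmt2a, a histone H3 methyltransferase, with 43, Arhgap32 with 35, Fat1 with 32, Prrc2b with 30, and Atm and Chd6, a chromatin remodeler, with 27 each.

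Early-only genes had slightly fewer and weaker peaks than genes also marked later. Both sets were chosen by the presence or absence of listed peaks, so this comparison is a description. Early-only genes carried 2.74, 2.20 and 2.44 peaks a gene on average in undifferentiated, type A1 and preleptotene cells, against 2.99, 2.50 and 2.86. The median was 2 throughout, and the most were 17, 12 and 16. The median strongest peak was 3.63, 2.04 and 3.31, against 3.91, 2.12 and 3.66. The gap ran the same way in each replicate, whose libraries both gene sets share, and was not tested. The medians of the early-only genes were 3.44 and 3.85 in the undifferentiated replicates, against 3.70 and 4.17 in genes also marked later. They were 2.08 and 2.00 in type A1, against 2.15 and 2.12, and 3.33 and 3.40 in preleptotene, against 3.70 and 3.65. All other genes of a stage, which need not be marked in the other stages, had median strongest peaks of 3.48, 2.05 and 3.37. They carried 2.50, 2.25 and 2.53 peaks a gene. Against them the early-only values were higher in undifferentiated cells and slightly lower in the other 2 stages. Enrichments of type A1 lay lower in the whole table, with a median peak of 1.76, against 3.01 in undifferentiated and 2.92 in preleptotene cells. The lowest listed peak, as a mean of replicates, was 0.71 in type A1, 1.48 in undifferentiated and 1.42 in preleptotene cells, and 1.55 in pachytene/diplotene spermatocytes and 0.61 in round spermatids.

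At the edge of the rule, 209 early-only genes had a single peak in each of the 3 stages, with medians of 3.04, 1.64 and 2.90. Just outside it, 785 genes marked in the first 3 stages had exactly 1 later peak, 602 in pachytene/diplotene with a median of 2.81 and 183 in round spermatids with a median of 1.72. The median peaks of those tables were 2.87 and 1.67, so these single later peaks were about average for their stage.

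The peaks of an early-only gene mostly stayed in place. In 1263 of the 1398 genes (90.3%) an undifferentiated peak overlapped, by at least 1 nucleotide of the same transcript, a type A1 peak and a preleptotene peak, and with a reciprocal overlap of at least 50% this held in 1119 (80.0%). Among genes also marked later it held in 95.3% at 1 nucleotide. By peak, 2219 of the 3824 early-only undifferentiated peaks (58.0%) overlapped both, against 64.7% in the genes also marked later, which have more peaks to overlap.

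Early-only peaks lay less in coding sequence. By the authors' location label, 57.6% of them were in coding sequence in undifferentiated cells (Wilson 95% interval 56.0% to 59.1%), against 61.9% (61.1% to 62.7%) of peaks of genes also marked later. In type A1 cells the shares were 46.5% (44.7% to 48.2%) and 53.5% (52.6% to 54.5%). The 3′ UTR held 14.7% of early-only peaks and 12.9% of the others in undifferentiated cells, and 22.1% and 17.1% in type A1 cells. Start codon peaks were 11.4% and 10.6% in undifferentiated and 11.4% and 10.5% in type A1 cells, and stop codon peaks 10.1% and 9.61%, and 15.1% and 14.1%. Peaks of a gene are not independent, so these intervals cover counting error only. Preleptotene peaks were not compared, because codon labels are absent from their table and 795 early-only peaks in it carry no label.

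**Figure D4:**
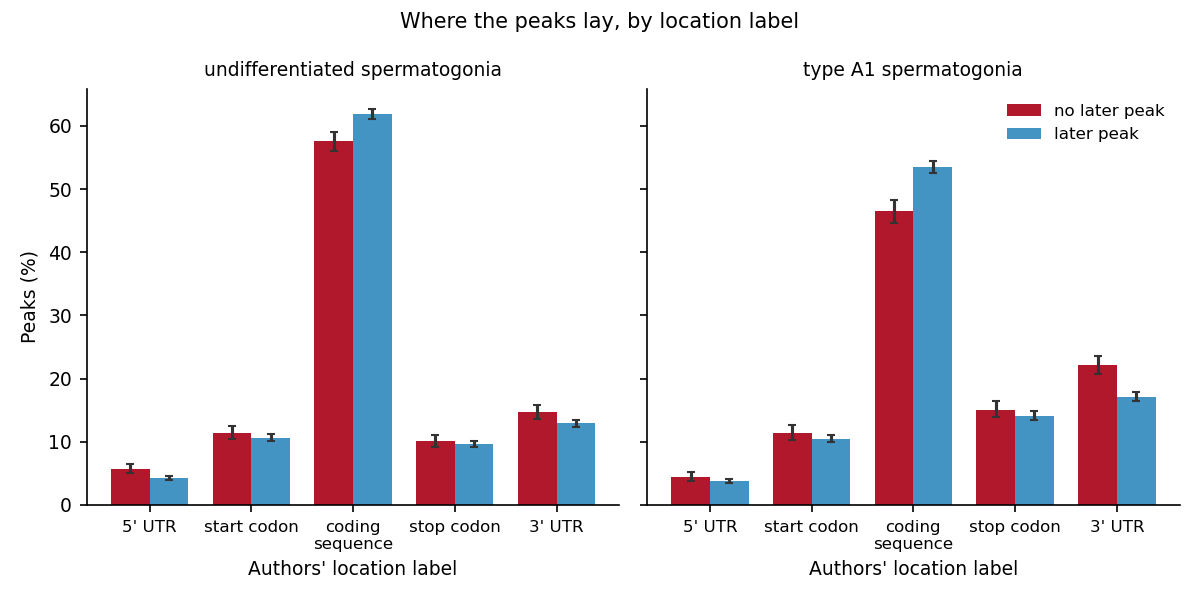
Share of peaks by the authors' location label in undifferentiated and type A1 spermatogonia, in percent, for early-only genes (red) and genes also marked later (blue), with Wilson 95% intervals. The coding share is lower in early-only genes in both stages (57.6% and 61.9%, and 46.5% and 53.5%), and the 3′ UTR share is higher.

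Whether the peaks of these genes differed in size between the 3 stages was tested with limma on the 2 replicates of each of 2 stages, over all peaks of a table. A peak was called at a Benjamini-Hochberg adjusted p under 0.05. Each column was first centred on its median. This matters for type A1, since the median peak was 1.69 lower in type A1 than in undifferentiated cells and 1.06 higher in preleptotene than in type A1 cells, while it differed by -0.0033 between preleptotene and undifferentiated cells. A difference is therefore relative to the median peak of the table. The type A1 columns also had a narrower spread (SD 0.68 and 0.66 over type A1 peaks) than the preleptotene ones (1.21 and 1.14), so quantile normalization, which makes the columns alike, is given beside each count. The rule asked for a peak of the gene in every one of these stages, not for the same peak in each. Type A1 over undifferentiated cells was tested at the peaks listed in undifferentiated cells, preleptotene over type A1 at those listed in type A1, and preleptotene over undifferentiated at those listed in preleptotene. A peak tested need not be listed in the other stage: 2523 of the 3824 early-only undifferentiated peaks overlapped a type A1 peak. The listing favours the stage it was made in, so the counts are descriptions of these lists, set beside all peaks listed in the same way.

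Preleptotene over undifferentiated cells gave few calls, equally split. Of 3403 early-only peaks 148 were higher and 146 lower (4.35% and 4.29%), in 86 and 116 genes, against 5.36% higher and 2.45% lower of all 18706 peaks. Among genes also marked later the shares were 2.64% and 2.08% of 12672. With quantile normalization 81 and 87 early-only peaks were called, against 2.85% and 1.27% of all peaks. Without preleptotene replicate 1 the counts were 89 and 78, and without preleptotene replicate 2 they were 53 and 72.

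Among the lists, that of TGF-beta, BMP and activin had most higher peaks in that comparison, 11 of 18 tested, all in 2 receptor genes, with 2 lower. The higher share was 4.35% over all early-only peaks and 5.36% over all peaks tested. This list is named because its count was the highest, and the peaks of a gene are not independent. The 11 calls therefore describe 2 genes, and the difference from all early-only peaks was not tested. Bmpr2, a BMP receptor, rose at 6 of its 7 preleptotene peaks, for example to 4.50 and 4.11 in preleptotene replicates, against 1.90 and 2.62 in undifferentiated ones, at bases 1729 to 1952 (log2 difference 2.04, SE 0.34, adjusted p = 0.00479). Tgfbr1, the type I receptor of TGF-beta, rose at 5 of 7, most in its 3′ UTR, with 3.14 and 3.18 against 0.71 and 1.43 (2.09, SE 0.33, adjusted p = 0.00378). Those undifferentiated values lay below the lowest peak listed in that stage (1.48), so this Tgfbr1 peak was tested only through its listing in preleptotene. Bmpr1a and Ski, a repressor of this pathway, each had 1 lower peak. Quantile normalization left 5 of the 6 Bmpr2 calls and 2 of the 5 of Tgfbr1.

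Several spermatogonial and signalling genes fell. Ccnd2 had 2.15 and 2.15 in preleptotene, against 4.75 and 4.96 in undifferentiated replicates, in its 5′ UTR (log2 difference -2.70, SE 0.33, adjusted p = 0.00191). Dnmt3a fell by 1.94 at its start codon, with 5.39 and 5.26 against 6.97 and 7.56 (adjusted p = 0.00522), and Dmrt1 by 1.52, with 6.36 and 5.95 against 7.22 and 8.13 (adjusted p = 0.0213, and 0.12 with quantile normalization). Of the 13 genes of the differentiation list 5 had a lower peak, which were Ccnd2, Dnmt3a, Dmrt1, Dnmt3b and Sall4, and none a higher one. Over all 1398 early-only genes, 116 had a lower and 86 a higher peak, and the difference was not tested. Kit did not pass, with 5.79 and 5.17 against 4.74 and 4.36 at its start. Ccna2 fell by 2.25 near its start, with 6.43 and 4.52 against 7.71 and 7.75 (adjusted p = 0.0229, and 0.0842 with quantile normalization). Ptch1, the Hedgehog receptor, fell by 3.09 in its coding sequence, with 2.22 and 3.02 against 4.98 and 6.45 (adjusted p = 0.00217). Dusp9, an X-linked MAP kinase phosphatase, fell by 2.08 near its 5′ end, with 2.96 and 3.24 against 5.24 and 5.13 (adjusted p = 0.00539), and Bcl2l11, which promotes cell death, by 2.34, with 2.25 and 2.57 against 4.23 and 5.28 (adjusted p = 0.0033).

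The leading peaks of this comparison were in other genes. Dip2c rose by 3.16 in its 5′ UTR, with 6.28 and 5.44 against 2.46 and 2.96 (adjusted p = 0.00155), ahead of Eml5 (3.07), Cyld, a deubiquitinase (2.77), Pank3, a pantothenate kinase (2.66), and Mrpl17, a mitochondrial ribosomal protein (2.66). Rcan3, an inhibitor of calcineurin, fell by 4.14, with 2.32 and 2.85 against 6.37 and 7.10 (adjusted p = 0.000326), ahead of Ptch1, Sbk1 (-3.02), Tpd52l2, at 1.60 and 2.38 against 5.11 and 4.88, and Vps26b, of the retromer (-2.84). In each of these the preleptotene and undifferentiated replicates did not overlap. The undifferentiated values of Pank3 (0.52 and 1.18) and Mrpl17 (0.67 and 1.42) lay below the lowest peak listed in that stage, 1.48 as a mean. The undifferentiated mean of the Cyld peak (1.47) also lay just below it. Pank3, Mrpl17 and Cyld were thus tested at these peaks only through their listing in preleptotene.

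**Figure D5:**
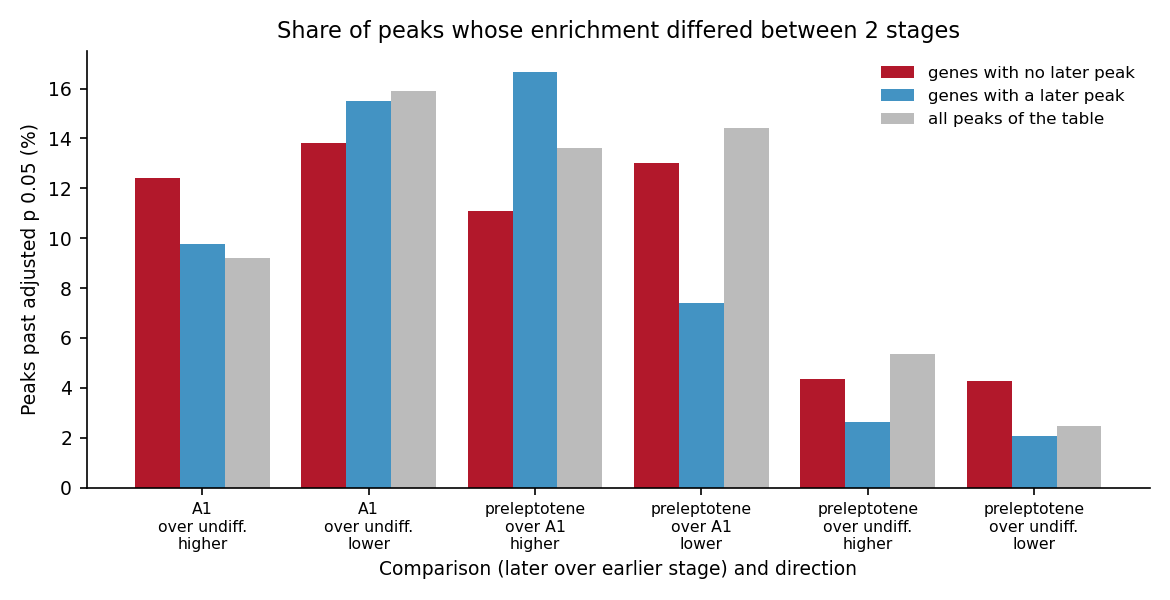
Share of peaks past an adjusted p of 0.05 in each comparison of 2 stages and each direction, in percent, for early-only genes (red), genes also marked later (blue) and all peaks of the table (grey), after median centring. Early-only peaks were called at 12.4% and 13.8% in type A1 over undifferentiated, 11.1% and 13.0% in preleptotene over type A1 and 4.35% and 4.29% in preleptotene over undifferentiated.

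Type A1 over undifferentiated cells gave 474 higher and 527 lower of 3819 early-only peaks (12.4% and 13.8%), in 382 and 376 genes, 89 of which had both. All 22843 peaks gave 9.22% and 15.9%, and genes also marked later 9.75% and 15.5%. With quantile normalization the split turned to 527 higher and 377 lower early-only peaks, against 10.9% and 11.2% of all peaks. Without type A1 replicate 1 the counts were 99 and 197, without type A1 replicate 2 they were 234 and 313, and without undifferentiated replicate 2 they were 743 and 767. The type A1 libraries stand apart from the others in alignment, with 68.3% to 87.5% of reads mapped against 92.8% to 97.6% elsewhere, and the part of this in the result was not tested.

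Start codons held 11.4% and coding sequence 57.6% of all early-only peaks listed in undifferentiated cells. The 5 leading lower peaks in type A1, relative to the median peak, lay in these same locations. Ccna2 led, with 1.45 and 1.82 in type A1 against 7.82 and 7.86 in undifferentiated replicates (centred difference -4.52, SE 0.28, adjusted p = 0.000312). Pgrmc1, an X-linked membrane heme protein, came next, with 0.92 and 1.13 against 6.69 and 6.48 (-3.87, adjusted p = 0.000586). Frmd6, a regulator of Hippo signalling, Zfp36l2, which destabilises RNA, and Prkar2b, a protein kinase A subunit, followed at -3.28, -3.28 and -3.16. Dmrt1 fell by 2.99 at its start codon (SE 0.26, adjusted p = 0.000711), Dnmt3a by 2.74, Rbbp7 by 2.80 and Eif1ax, an X-linked initiation factor, by 2.70. Of the 10 early-only cyclin genes 5 had a lower peak and 1 a higher one, and of the 8 genes of the undifferentiated list 6 and 3. Over all 1398 early-only genes, 376 had a lower and 382 a higher peak. The 2 lists had 28 and 36 peaks tested, and their difference from all early-only genes was not tested. In the Foxo1 transcript, the start codon peak fell by 1.59 and the 3′ UTR peak at bases 2840 to 2994 rose by 1.89 (adjusted p = 0.00583 and 0.00224), with 3′ UTR enrichments of 3.03 and 2.91 in type A1, and 2.57 and 2.97 in undifferentiated replicates before centring.

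Kit had a 3′ UTR peak that rose by 1.13 relative to the median peak, at 3.21 and 3.07 against 2.97 and 4.41 (adjusted p = 0.0414). Unlike that of Foxo1, its start codon peak did not pass, at 2.62 and 2.39 against 4.71 and 4.30. The 5 leading higher peaks were those of Trappc13, of a trafficking complex, with 2.86 and 3.21 against 1.83 and 2.20 (2.71, adjusted p = 0.000791), Rfk, a riboflavin kinase (2.66), Arrdc2 (2.61), Fam8a1 (2.51) and Spns2, a sphingolipid transporter (2.48). Those of Rfk, Arrdc2 and Spns2 lay in the 3′ UTR, that of Trappc13 in the 5′ UTR and that of Fam8a1 at the start codon. Before centring, Spns2 measured 3.77 and 3.56 in type A1 and 2.73 and 3.01 in undifferentiated replicates.

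Preleptotene over type A1 cells gave 342 higher and 401 lower of 3082 early-only peaks (11.1% and 13.0%), in 264 and 310 genes. All 16309 peaks gave 13.6% and 14.4%, close to the early-only shares, and genes also marked later gave 16.7% and 7.39% of 11049. Quantile normalization gave 331 and 380 early-only peaks, against 11.9% and 12.7% of all. The counts were 64 and 54 without type A1 replicate 1, 104 and 114 without type A1 replicate 2, 634 and 690 without preleptotene replicate 1, and 611 and 862 without preleptotene replicate 2.

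Of the 5 leading higher peaks 3 were X-linked. Lonrf3, an X-linked gene, measured 7.82 and 7.29 in preleptotene against 2.14 and 2.48 in type A1 replicates (centred difference 4.18, adjusted p = 0.00104), ahead of Pgrmc1 (3.25), Cyld (3.15), Homer1, a synaptic scaffold protein (3.01), and Syap1, also X-linked (2.92). With quantile normalization the differences of these 5 were 3.07, 3.13, 2.69, 2.64 and 1.72 in the same order. Of 342 X-linked early-only peaks 59 were higher and 39 lower, against 283 and 355 of 2731 autosomal ones. In preleptotene over undifferentiated cells 25 and 10 of 352 X-linked peaks were called, against 123 and 136 of 3038 autosomal ones, and in type A1 over undifferentiated cells 55 and 63 of 394 against 419 and 464 of 3415. With quantile normalization the X-linked counts were 56 and 32, 15 and 5, and 57 and 51 in the same order. The difference between X-linked and autosomal peaks was not tested.

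Several start codon and 5′ UTR peaks rose in preleptotene, while the 5′ UTR peaks of Clic6 and Igsf9b fell. Calls were not counted by location. This comparison and the one before it share the type A1 libraries, so their differences are not independent. Kit rose by 1.89 at its start codon, with 5.73 and 5.17 in preleptotene against 2.61 and 2.39 in type A1 replicates (SE 0.29, adjusted p = 0.00392). Dmrt1 rose by 2.10 (adjusted p = 0.00221), Rbbp7 by 2.24 (adjusted p = 0.00169) and Ccna2 by 2.76 (adjusted p = 0.0139), the last with replicates of 6.52 and 4.39. These values of Kit, Dmrt1, Rbbp7 and Ccna2 follow median centring only, which leaves the type A1 columns with a narrower spread than the preleptotene ones. The part of that spread in the rises was not tested. Fmr1 rose at all 3 of its type A1 peaks tested, by 1.19 to 2.86, and Casp2, a caspase, by 1.88 at 1 of its 3. Atm rose at 4 peaks, of which its strongest, at 6.26 and 5.84 against 3.84 and 3.69, had an adjusted p of 0.0141 and of 0.98 with quantile normalization. Ccnd2 fell at both its type A1 peaks, by 1.40 and 1.51, and Bcl2l11 by 1.93. Clic6, a chloride channel family protein, led the lower peaks, with 0.43 and 0.74 against 2.61 and 2.72 (-3.14, adjusted p = 0.00104). It was followed by Prdm16, a transcription factor (-2.60), Ets2, another (-2.52), the receptor Notch2 (-2.43) and Igsf9b (-2.40). The preleptotene means of Clic6 (0.58), Prdm16 (0.62), Ets2 (1.36) and Notch2 (0.24) lay below the lowest peak listed in preleptotene (1.42). These peaks were therefore tested only through their listing in type A1.

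Markers of other testis cells were marked mostly in undifferentiated spermatogonia, and few were marked in each of the first 3 stages. Of 24 Sertoli cell markers 21 had a peak in undifferentiated cells, 4 in type A1 and 8 in preleptotene cells, and 4 in all of them. Espn, an actin-bundling protein, was the 1 early-only gene of this list, at 3.56 ± 0.37, 2.28 ± 0.02 and 2.89 ± 0.26 (SD, n = 2 each). That is 1 of the 4, or 25%, near the 24.0% of all genes marked in the first 3 stages. Of 13 Leydig cell, 20 peritubular, stromal and endothelial, and 16 blood and macrophage markers, 6, 11 and 9 had a peak in undifferentiated cells and 0, 1 and 0 in type A1 cells. None of them was marked in each of the first 3 stages, so none could be early-only. The part of these markers in the undifferentiated values was not tested.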

How the data were processed

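The authors deposited 1 peak table per stage and a table of each library's read numbers. Per the file headers, each peak carries a gene, a RefSeq transcript with positions on it, and where on the transcript it lies. Each replicate has a deposited log2 enrichment, and a second deposited log2 value for the ratio to another stage. The read table's other columns hold the deposited numbers of reads. Reads were aligned with TopHat2 2.0.14 to mm10, per the submitters' processing notes. Peak caller, threshold and scaling: not given in the sources used here. Depth was 9622068 to 22402907 mapped reads a library. A peak's precision comes only from its 2 replicates, which correlated at r = 0.833, 0.879 and 0.802 over early-only peaks of the 3 stages.

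The stage behind each ratio is not named. Enrichment minus ratio correlated at r = 0.997 to 0.998 with 1 stage and at 0.447 to 0.762 with the others, which set undifferentiated against type A1, type A1 against preleptotene and preleptotene against undifferentiated cells. No pachytene/diplotene or round spermatid value at the early-only peaks was used here. The columns R1 and R2 were taken as replicates 1 and 2. Replicate deviations of 2 stages correlated at -0.129, -0.143 and 0.122. These weak values show no clear pairing by replicate number but cannot exclude one, and the labels used here do not state any.

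Genes were matched by Entrez gene; 803 of 84778 peaks have none. Tests used limma 3.58.1 (R 4.3.3), two-sided, later minus earlier stage, no replicate block, p adjusted over all peaks of a table; peaks with an exact 0 (188, 83 and 43 per table) were left out. The script was tested on simulated data. Intervals are Wilson 95% (scipy 1.17.1).

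The early-only genes, the 22 gene lists and the naming rule were chosen with earlier results of these data known. The rule names Kit, Dmrt1 and Stra8; per list up to 4 members highest in undifferentiated cells; the 10 genes and 6 X-linked genes highest in their lowest stage; the 5 with most peaks; and per comparison the 5 highest and 5 lowest called differences. Predicted (Gm) and Rik symbols and hyphenated ones were not named. Some genes the rule names are only counted, 1 is not reported here, and Chd6, the Y-linked genes, the retrocopies, Chic1 and Vsig1 were named after their values were seen. Gene, promoter and chromosome annotation is RefSeq GRCm38.p6.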

Additional observations from a re-analysis of the deposited data

How the results depend on the processing

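Over 118 recomputed values, 73 stayed within 1.5 times the count, or the spread, of the reported one, and 45 moved. The balance of higher and lower calls turned in type A1 over undifferentiated cells with quantile normalization (527 and 377). In preleptotene over type A1 cells it turned without type A1 replicate 1 (64 and 54) and without centring (1982 and 38). From near equality, it turned in preleptotene over undifferentiated cells with quantile normalization, without centring (114 and 122) and without preleptotene replicate 2. Cutting every table to an equal number of its best peaks gave 891 early-only genes, median strongest peaks of 4.05, 2.33 and 3.70 in the 3 stages, 52.8%, 14.4% and 11.4% of undifferentiated peaks at coding sequence, start and stop codon, and 44.4% and 16.7% of type A1 peaks at coding sequence and stop codon. Requiring a mean log2 enrichment of at least 2 gave 809 genes, medians of 4.01, 2.48 and 3.71, 54.5%, 10.3% and 18.0% of undifferentiated peaks at coding sequence, start codon and 3′ UTR, and 38.5% and 20.5% of type A1 peaks at coding sequence and stop codon. These settings use fewer and stronger peaks. The X-linked share lay between 9.85% and 10.9% under all 6 alternatives tried for it, 2 of them (the type A1 table left out; genes filled in through the transcript) chosen after seeing the data. Matching peaks by location label gave 589 genes with a peak in place in the 3 stages, since preleptotene has no start or stop label. Without centring, type A1 over undifferentiated cells called 5 higher and 3320 lower early-only peaks, and preleptotene over type A1 called 1982 and 38. Quantile normalization gave 81 and 87 for preleptotene over undifferentiated. With the replicate number as a block that comparison gave 249 and 237, and the other 2 comparisons stayed within 1.5 times. Whether equal numbers pair samples is not known, and the cause was not tested. Leaving out 1 replicate gave 99 to 743 higher and 197 to 767 lower peaks for type A1 over undifferentiated, 64 to 634 and 54 to 862 for preleptotene over type A1, and 53 to 137 and 72 to 135 for preleptotene over undifferentiated; a lone replicate is taken to vary like the other stage. The medians of the strongest peak then ran from 3.44 to 3.85, 2.00 to 2.08 and 3.33 to 3.40. Peaks were called once per stage, so the gene set could not be recalled without a replicate.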
